A study of Homo sapiens with 5 samples.

Results

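PDGFRA, PDGFRB, FGFR1, EGFR, MET and DDR2 are receptor tyrosine kinases of fibroblasts, and FGF2, FGF5, PDGFC and HGF are growth factors that act on such receptors. These 10 genes, 6 receptors and 4 growth factors, were chosen by name from the 26364 genes listed in the table of normalized counts, and all 10 were found there and passed the filter on low values. They were measured by mRNA-seq in IMR-90 cells, normal human fetal lung fibroblasts that the study calls primary, collected 24 hr after siRNA transfection. Ctr-KD cells (2 libraries) received a control siRNA, and NSD2-KD cells (3 libraries) received 1 of 3 siRNAs against the histone H3K36 methyltransferase NSD2, named NSD2-1, NSD2-2 and NSD2-3. Both groups were transfected, no untransfected cells entered the comparison, and the knockdown is transient and leaves some NSD2 mRNA. Each siRNA was sequenced once, so a difference between siRNAs cannot be told apart from one between replicates. The comparison asks whether loss of NSD2 changes the mRNA of the receptors and growth factors through which fibroblasts receive proliferative signals.

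Receptor tyrosine kinases span the plasma membrane, bind a ligand outside the cell and phosphorylate themselves and their adaptors inside it, which starts the RAS-MAPK and PI3K-AKT cascades. Fibroblasts are classic PDGF and FGF responders. PDGFRA and PDGFRB mark mesenchymal cells, and HGF is a typical product of fibroblasts that acts on the MET of neighboring epithelium.

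A gene's normalized count is its number of reads divided by one size factor of the library. The libraries held between 2473691 and 2845063 reads on genes, and the 10 genes together took between 0.170% and 0.186% of them, with 73 to 1115 reads per gene and library. The 2 Ctr-KD libraries differed by little more than counting noise (chi-square per degree of freedom 1.05 over 12373 genes), against 3.87 to 5.29 for any other pair of libraries. They are named biological replicates in the study's methods, but no label gives their cultures, so the spread between them may be technical. The p-values measure the spread between the sequenced libraries only. They pool the Ctr-KD spread with that between the NSD2-KD libraries, which had different siRNAs, as if both groups varied alike. NSD2, listed as WHSC1, stood at 463 and 443 normalized counts in Ctr-KD cells and at 90.2, 81.9 and 87.9 with NSD2-1, NSD2-2 and NSD2-3. This was 18.1% to 19.9% of the Ctr-KD mean, a log2 difference of -2.37 (SE 0.124, limma adjusted p = 0.000464). Of the fibroblast markers (10 genes), the summed normalized count lay between 201540 and 227450 in every library, most of it from COL1A1, COL1A2 and FN1. S100A4 of that list stood at only 6.17 to 8.79. Of the endothelial and leukocyte lists, PECAM1, CDH5, EMCN, PTPRC, LYZ and CD3E were at 0 throughout. The others of these lists, CD68 apart, reached at most 5.52 in a library. The epithelial list (9 genes), most of it CLDN4, summed to between 12.3 and 27.3, and the endothelial list (7 genes) to between 5.72 and 12.0. The leukocyte list (7 genes), nearly all of it CD68, summed to between 62.5 and 106. The smooth muscle and pericyte list (7 genes) summed to between 3453 and 4007, nearly all of it from ACTG2, CSPG4, MCAM and CNN1. MYH11, RGS5 and DES of that list reached at most 22.1, 7.62 and 1.03 in a library. In these bulk libraries, fewer cells that express a gene and less of its mRNA per cell cannot be told apart.

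None of the 10 genes passed the test for a difference between NSD2-KD and Ctr-KD cells. It was run with limma, allowing for a mean-variance trend, on log2 values (normalized counts plus a pseudocount of 1) of 11313 genes, and p-values were adjusted by Benjamini-Hochberg with 0.05 as the threshold. Adjusted p-values of the 10 genes ran from 0.557 to 0.985, in a comparison in which 0.0884% of all genes tested were called. None had an unadjusted p under 0.05 either, where 9.18% of all genes did. Counting models on the recovered reads called none of the 10 as well, with 0.141% of genes called by edgeR's quasi-likelihood test, 0.557% by DESeq2 and 0.0884% by limma-voom. The point estimates were above 0 for 6 genes and below 0 for 4. Their median log2 difference was 0.04, with 0.05 for the 6 receptors and -0.20 for the 4 growth factors, beside -0.01 for all genes tested. The 95% intervals reached from 0.20 (FGFR1) to 0.89 (MET) to either side of the estimate on the log2 scale, and a change of up to 2.28-fold lay inside the widest-reaching one, that of FGF2.

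**Figure D1:**
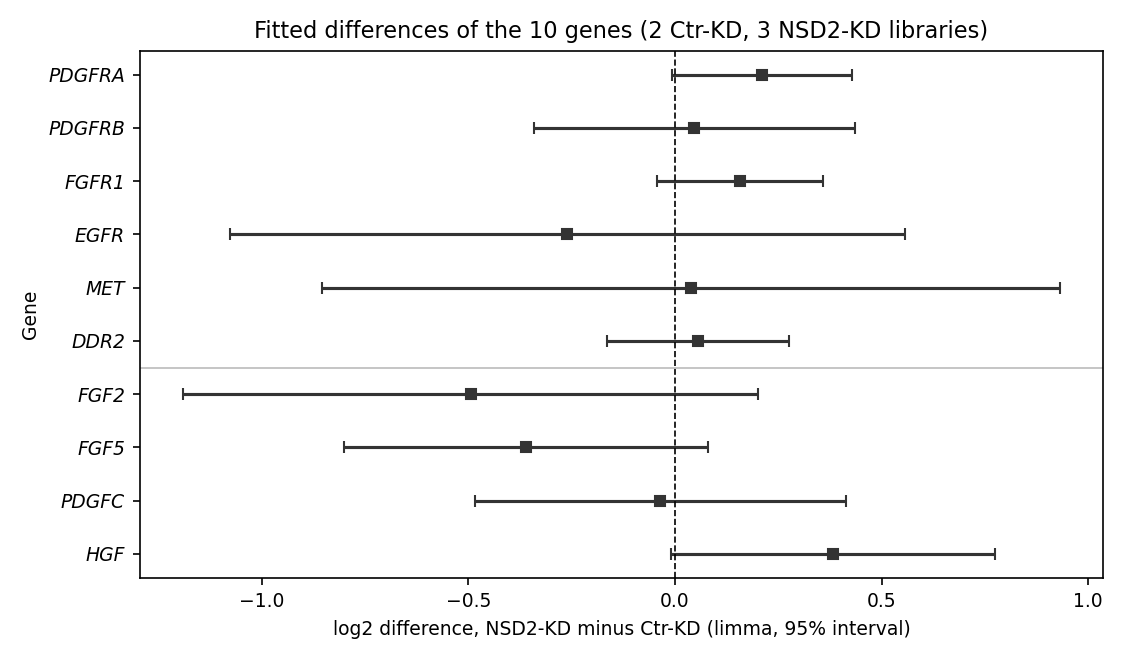
Fitted log2 difference of each gene, NSD2-KD minus Ctr-KD (x axis), with its 95% interval from limma (bars; 2 Ctr-KD and 3 NSD2-KD libraries). Receptors stand above the grey line and growth factors below it. All 10 intervals include 0, the narrowest for FGFR1 and the widest for MET.

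The NSD2-KD libraries all lay above both Ctr-KD libraries for 4 of the 10 genes, PDGFRA, FGFR1, DDR2 and HGF, an order found for 13.8% of all genes. They all lay below for FGF5 alone, an order found for 13.9% of all genes, and the groups overlapped for PDGFRB, EGFR, MET, FGF2 and PDGFC. What set the genes apart from each other was how far the siRNAs differed among themselves. The log2 range between the 3 NSD2-KD libraries had a median of 0.63 over the 10 genes, against 0.29 over the 5120 genes whose normalized counts averaged 100 or more, and 7 of the 10 lay above that value. The range between the 2 Ctr-KD libraries was 0.06 for the 10 genes and 0.09 for those 5120. At equal spread a range over 3 libraries is wider than one over 2, so the ranges of the groups are not directly comparable. Set against the pooled Ctr-KD reads, 21 of the 30 values (10 genes with 3 siRNAs) had a 95% counting interval that left out 100%, 13 above it and 8 below it. Over all 5120 genes with each siRNA, 35.4% of 15360 values left out 100%, 19.0% above and 16.5% below, and that share depends on how many reads a gene has. These exact intervals cover the counting of reads only and not the spread between cultures.

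**Figure D2:**
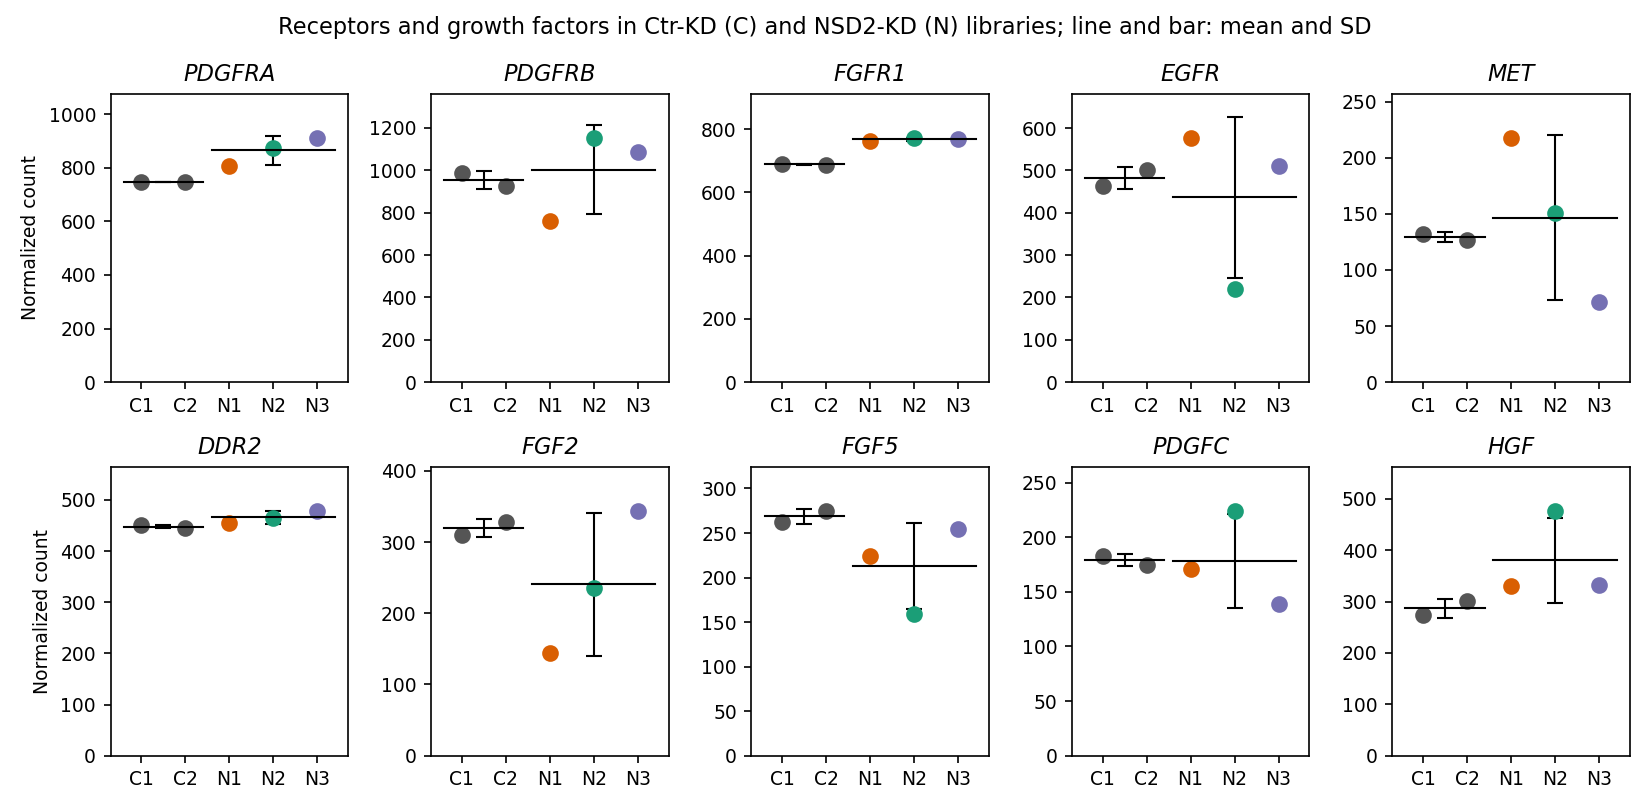
Normalized counts (y axes, each from 0) of the 10 genes in Ctr-KD replicates 1 and 2 (C1, C2, grey) and in NSD2-KD cells with siRNA NSD2-1, NSD2-2 and NSD2-3 (N1 orange, N2 green, N3 purple). Horizontal lines are group means and bars are SD. FGFR1 and DDR2 were nearly level across the siRNAs, while EGFR was low with NSD2-2, MET with NSD2-3, and FGF2 and PDGFRB with NSD2-1.

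Among the receptors, FGFR1, the main FGF receptor of mesenchymal cells, was the most even. Its gene lies at chr8:38257733-38326352 on the minus strand (GRCh37, the assembly of hg19, as are the positions that follow). It had 689.7 and 687 normalized counts in Ctr-KD cells and 764, 773 and 767 with NSD2-1, NSD2-2 and NSD2-3. All NSD2-KD values lay above both controls, and the siRNAs differed by 1.01-fold between the lowest and the highest. Of the 5120 genes, 0.215% had a smaller range between siRNAs. That range is smaller than the counting error of the 3 values, so their closeness is not read as a trait of the gene. The means were 688 ± 1.76 (SD, n = 2) and 768 ± 4.87 (SD, n = 3), a log2 difference of 0.16 (SE 0.09, 95% interval -0.04 to 0.36) with a limma adjusted p of 0.645. Each siRNA left FGFR1 at nearly the same share of the pooled Ctr-KD level, 111% with NSD2-1 (95% counting interval 102% to 121%), 112% with NSD2-2 (102% to 123%) and 111% with NSD2-3 (102% to 122%).

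DDR2, a receptor that binds fibrillar collagen rather than a soluble factor (chr1:162601163-162757195, plus strand), varied little too. Its normalized counts were 451 and 445 in Ctr-KD cells and 455, 464 and 478 in NSD2-KD cells. The groups did not overlap, but the whole span of the 5 libraries was small and the 3 counting intervals against Ctr-KD cells all included 100%. The log2 difference was 0.06 (SE 0.10, 95% interval -0.17 to 0.28, adjusted p = 0.901).

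PDGFRA (chr4:55095447-55164412, plus strand) binds PDGF-A, PDGF-B and PDGF-C chains, whereas PDGFRB (chr5:149493402-149535435, minus strand) binds mainly PDGF-B and PDGF-D. PDGFRA had 748 and 746 normalized counts in Ctr-KD cells and 807, 875 and 913 with NSD2-1, NSD2-2 and NSD2-3. Each NSD2-KD library was above both controls, with the smallest step for NSD2-1, whose counting interval just included 100% (99.3% to 117.5%). The means were 747 ± 1.39 (SD, n = 2) and 865 ± 53.6 (SD, n = 3), and the log2 difference was 0.21 (SE 0.09, 95% interval -0.01 to 0.43, adjusted p = 0.563). PDGFRB had 986 and 925 normalized counts in Ctr-KD cells and 763, 1155 and 1088 in NSD2-KD cells. It thus lay on either side of the controls depending on the siRNA, at 79.7% of the pooled Ctr-KD level with NSD2-1 (73.4% to 86.5%), 121% with NSD2-2 (112% to 130.2%) and 114% with NSD2-3 (106% to 123%). Its log2 difference of 0.05 (SE 0.17, 95% interval -0.34 to 0.43, adjusted p = 0.958) became -0.068 without NSD2-KD replicate 2 and -0.025 without NSD2-KD replicate 3.

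The ratio of the paralogs within a library does not depend on the size factor. The log2 ratio of PDGFRA to PDGFRB was -0.40 and -0.31 in Ctr-KD cells and 0.08, -0.40 and -0.25 with NSD2-1, NSD2-2 and NSD2-3. PDGFRA thus exceeded PDGFRB in reads only with NSD2-1, and the groups overlapped. The mean ratio differed by 0.16 between the groups (exact permutation test, two-sided, p = 0.60), and with 2 libraries against 3 the smallest p this test can give is 0.10. Without NSD2-KD replicate 1 the difference was 0.027.

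EGFR, the receptor of EGF, TGF-alpha and HB-EGF, and MET, the receptor of HGF, differed most between the siRNAs among the receptors. Both genes lie on chromosome 7, EGFR at chr7:55086710-55279321 and MET at chr7:116312250-116438431, both on the plus strand. EGFR had 463 and 501 normalized counts in Ctr-KD cells and 578, 219.6 and 512 with NSD2-1, NSD2-2 and NSD2-3. The NSD2-2 library alone lay far below the controls, at 45.6% of their pooled level (95% counting interval 39.0% to 53.2%), while NSD2-1 stood at 120.1% (108% to 133%) and NSD2-3 at 106% (95.4% to 118%). The highest siRNA value was 2.62 times the lowest, a range larger than in 98.5% of the 5120 genes. The fitted log2 difference was -0.26 (SE 0.36, 95% interval -1.08 to 0.56, adjusted p = 0.874), and it was 0.17 without NSD2-KD replicate 2, the NSD2-2 library. EGFR-AS1, an antisense transcript inside the gene, stood at 20.01 and 22.6 normalized counts in Ctr-KD cells and at 29.4, 10.9 and 36.1 in NSD2-KD cells. It too was lowest with NSD2-2, as were 34.8% of all genes tested. The strand setting of the counting is not given in the sources used here, so reads from exon bases that the pair shares cannot be told apart.

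MET had the lowest mean normalized count of the 10 genes and the widest spread. Its normalized counts were 132 and 127 in Ctr-KD cells and 218, 151 and 71.3 with NSD2-1, NSD2-2 and NSD2-3. The siRNAs fell on both sides of the controls, with 168% of the pooled Ctr-KD level for NSD2-1 (141% to 201%), 116% for NSD2-2 (94.0% to 143%) and 55.0% for NSD2-3 (41.8% to 71.5%). The highest value was 3.03 times the lowest, a range larger than in 99.2% of the 5120 genes. Group means of 129 ± 4.16 (SD, n = 2) and 147 ± 73.5 (SD, n = 3) stood beside a fitted log2 difference, which is one of mean log2 values, of 0.04 (SE 0.39, 95% interval -0.85 to 0.93, adjusted p = 0.985). This value turned to -0.32 without NSD2-KD replicate 1 and to -0.05 without NSD2-KD replicate 2.

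**Figure D3:**
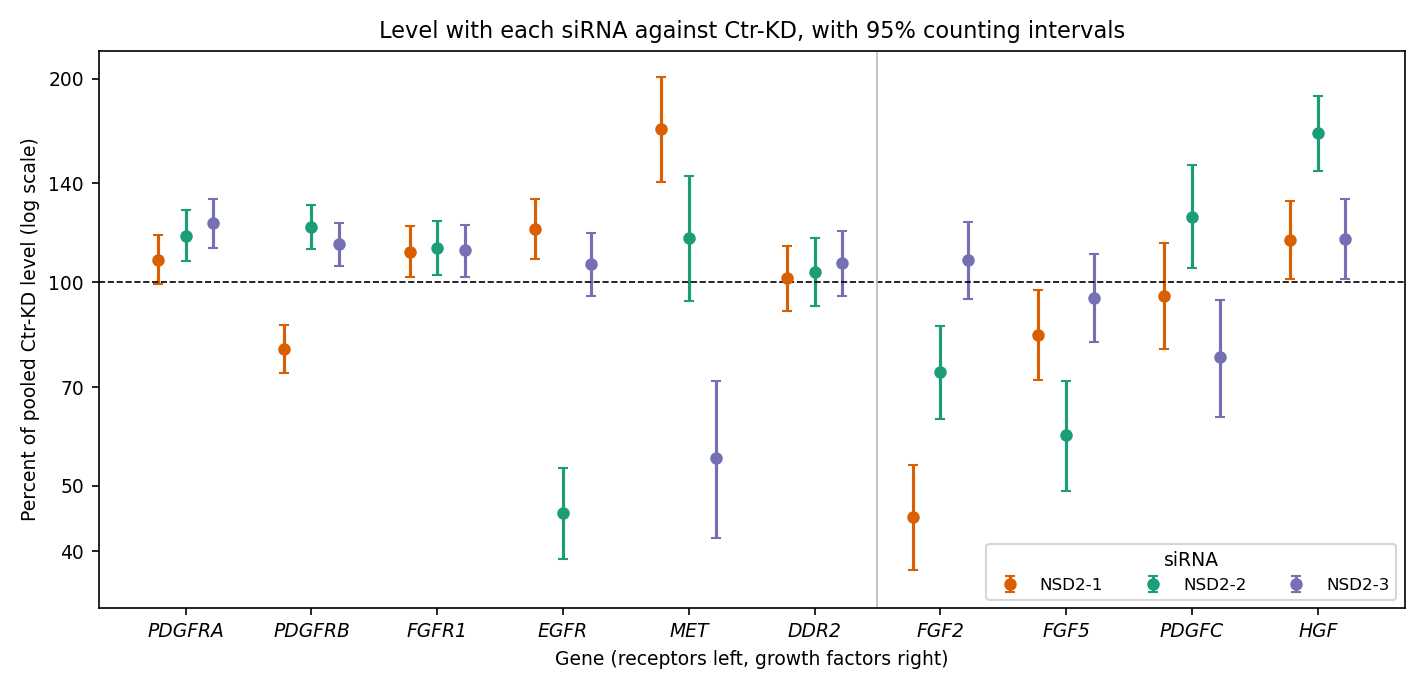
Level of each gene with NSD2-1 (orange), NSD2-2 (green) and NSD2-3 (purple), in percent of the pooled Ctr-KD level (log scale), with exact 95% counting intervals (bars, counting error only; 1 library per siRNA). The 3 siRNAs lay close together for FGFR1 and DDR2 and on both sides of 100% for PDGFRB, EGFR, MET, FGF2 and PDGFC, with EGFR at 45.6% for NSD2-2 and MET at 168% for NSD2-1.

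The bases just before the transcription starts of EGFR and MET are shown because these receptors differed most between the siRNAs, and they were chosen after those values had been seen. Each run holds the 150 bases before a RefSeq start on GRCh38.p14, the single one given for MET and the first of 2 given for EGFR (EGFR chr7:55018867-55019016 and MET chr7:116672046-116672195, plus strand), with the GC box (GGGCGG on either strand) in capitals.
EGFR: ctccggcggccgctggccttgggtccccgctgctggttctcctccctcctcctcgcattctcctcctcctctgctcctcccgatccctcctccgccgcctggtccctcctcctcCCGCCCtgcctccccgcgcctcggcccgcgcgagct
MET: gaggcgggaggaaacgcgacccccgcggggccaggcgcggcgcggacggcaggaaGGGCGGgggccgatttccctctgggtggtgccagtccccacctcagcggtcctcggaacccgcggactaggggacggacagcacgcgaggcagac
Both windows were 74.7% G and C and held 1 GC box, which 36.7% of 27305 RefSeq promoter windows of the same length held at least once. Neither of these windows held CCAAT (in 24.4% of windows, either strand) or TATAAA (in 7.05%). The window before the second EGFR start (chr7:55109689-55109838), not printed here, was 36.7% G and C and held no GC box, no CCAAT and 2 TATAAA matches. These letters describe the windows and were not tied to any of the values above.

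Among the growth factors, FGF2, a heparin-binding mitogen of fibroblasts that acts on FGFR1 (chr4:123747837-123819391, plus strand), had the largest fitted difference of the 10 genes. Its normalized counts were 311 and 328 in Ctr-KD cells and 144, 235 and 344 with NSD2-1, NSD2-2 and NSD2-3. NSD2-1 and NSD2-2 lay below both controls, at 45.0% (37.5% to 53.7%) and 73.6% (62.8% to 86.0%) of the pooled Ctr-KD level, and NSD2-3 lay above both, at 108% (94.3% to 123%). The means were 319 ± 12.5 (SD, n = 2) and 241 ± 100.2 (SD, n = 3), and the fitted difference of mean log2 values was -0.49 (SE 0.30, 95% interval -1.19 to 0.20, adjusted p = 0.688). Without NSD2-KD replicate 3 the difference was -0.79 (adjusted p = 0.204) and without NSD2-KD replicate 1 it was -0.17.

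NUDT6 overlaps FGF2 on the other strand. It had 41.9 and 47.3 normalized counts in Ctr-KD cells and 21.2, 36.0 and 57.6 with NSD2-1, NSD2-2 and NSD2-3, the same order as FGF2. As for EGFR, reads from exon bases that the overlapping genes share cannot be told apart. Over 7585 genes whose normalized counts averaged 50 or more, those closest to FGF2 in their 5 log2 values relative to Ctr-KD cells were NUCKS1, TAOK1 and C11orf95, at a root mean square distance of 0.06, 0.07 and 0.09.

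FGF5, another FGF that fibroblasts secrete (chr4:81187793-81257834, plus strand), had 263 and 275 normalized counts in Ctr-KD cells and 225, 159 and 255 in NSD2-KD cells. It was the one gene of the 10 whose NSD2-KD libraries all lay below both controls, with NSD2-2 lowest at 59.4% of the pooled Ctr-KD level (49.1% to 71.4%) and NSD2-3 at 94.9% (81.5% to 110.2%). The means were 269 ± 8.31 (SD, n = 2) and 213 ± 48.7 (SD, n = 3), with a log2 difference of -0.36 (SE 0.19, 95% interval -0.80 to 0.08, adjusted p = 0.629), and the difference was -0.17 without NSD2-KD replicate 2. FGF2 and FGF5 were thus lowest with different siRNAs. The log2 ratio of FGF2 to FGF5 was 0.24 and 0.26 in Ctr-KD cells and -0.64, 0.56 and 0.43 with NSD2-1, NSD2-2 and NSD2-3. The groups differed by -0.13 in the mean of that ratio (exact permutation test, two-sided, p = 1.0), and by 0.25 without NSD2-KD replicate 1.

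PDGFC, which encodes a PDGF chain secreted in latent form and activated by proteases such as tissue plasminogen activator (chr4:157681606-157892951, minus strand), had nearly equal group means, 179 ± 5.67 (SD, n = 2) and 178 ± 43.1 (SD, n = 3). Its normalized counts were 183 and 175 in Ctr-KD cells and 171, 224 and 139 with NSD2-1, NSD2-2 and NSD2-3. NSD2-2 stood above the controls at 125% (105% to 149%), and NSD2-3 below them at 77.4% (63.3% to 94.2%). The log2 difference was -0.04 (SE 0.20, 95% interval -0.48 to 0.41, adjusted p = 0.973), and it was 0.13 without NSD2-KD replicate 3.

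HGF, the ligand of MET (chr7:81328326-81399754, minus strand), had the smallest adjusted p of the 10 genes. Its normalized counts were 274 and 300.4 in Ctr-KD cells and 331, 476 and 333 with NSD2-1, NSD2-2 and NSD2-3. All NSD2-KD libraries lay above both controls, and NSD2-2 stood apart from the other two at 166% of the pooled Ctr-KD level (146% to 188%), against 115% (101% to 132%) and 116% (101% to 133%). The means were 287 ± 18.4 (SD, n = 2) and 380.1 ± 83.3 (SD, n = 3), and the fitted difference of mean log2 values was 0.38 (SE 0.17, 95% interval -0.01 to 0.77, adjusted p = 0.557). Without NSD2-KD replicate 2 the difference was 0.21. FRMD4A, HIST1H2BK and MPG were closest to HGF in their 5 values, at a distance of 0.05, 0.05 and 0.06 over the same 7585 genes.

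Read by siRNA rather than by gene, no siRNA moved all 10 genes one way. With NSD2-1, the counting interval lay above 100% for 4 genes (FGFR1, EGFR, MET and HGF), below for 3 (PDGFRB, FGF2 and FGF5) and included it for 3. With NSD2-2 it lay above for 5 (PDGFRA, PDGFRB, FGFR1, PDGFC and HGF) and below for 3 (EGFR, FGF2 and FGF5). With NSD2-3 it lay above for 4 (PDGFRA, PDGFRB, FGFR1 and HGF) and below for 2 (MET and PDGFC). FGFR1 and HGF were the genes above 100% with each siRNA, and none of the 10 was below it with each. Over the 5120 genes and the 3 siRNAs together, 19.0% of values lay above 100% and 16.5% below. The share of all genes for a single siRNA, or on the same side with each siRNA, was not computed. The counts by siRNA are thus a description only. HGF was highest with NSD2-2 and its receptor MET with NSD2-1. FGF2 varied 2.38-fold between the siRNAs, while FGFR1 varied 1.01-fold, which is within counting error. With a single library per siRNA, the order of a ligand and its receptor is a description only.

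Between genes, levels were compared per kb of canonical transcript, since long transcripts give more reads. In Ctr-KD cells PDGFRB was the highest at 168 ± 7.58 normalized counts per kb (SD, n = 2), followed by FGFR1 at 121 ± 0.309 and PDGFRA at 117 ± 0.218. Over all 5 libraries the ranges of these 3 receptors overlapped (134 to 203, 121 to 136 and 117 to 143 per kb), so their order is not beyond their spread. They were above the other 7 genes in every library. FGF5, HGF, EGFR, FGF2, DDR2 and PDGFC followed at 50.6, 49.3, 48.7, 48.0, 44.4 and 39.1 per kb in Ctr-KD cells, and neighbors in that order overlapped over the 5 libraries. MET was the lowest at 19.0 ± 0.609 per kb, with a range of 10.4 to 32.0 that reached into that of PDGFC (30.3 to 49.0). The order depends on the transcript length used. With the length of all annotated exons PDGFRB (133.9 per kb) and PDGFRA (78.2 per kb) were followed by FGF2 (47.0 per kb), and FGFR1 came sixth at 40.03 per kb.

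**Figure D4:**
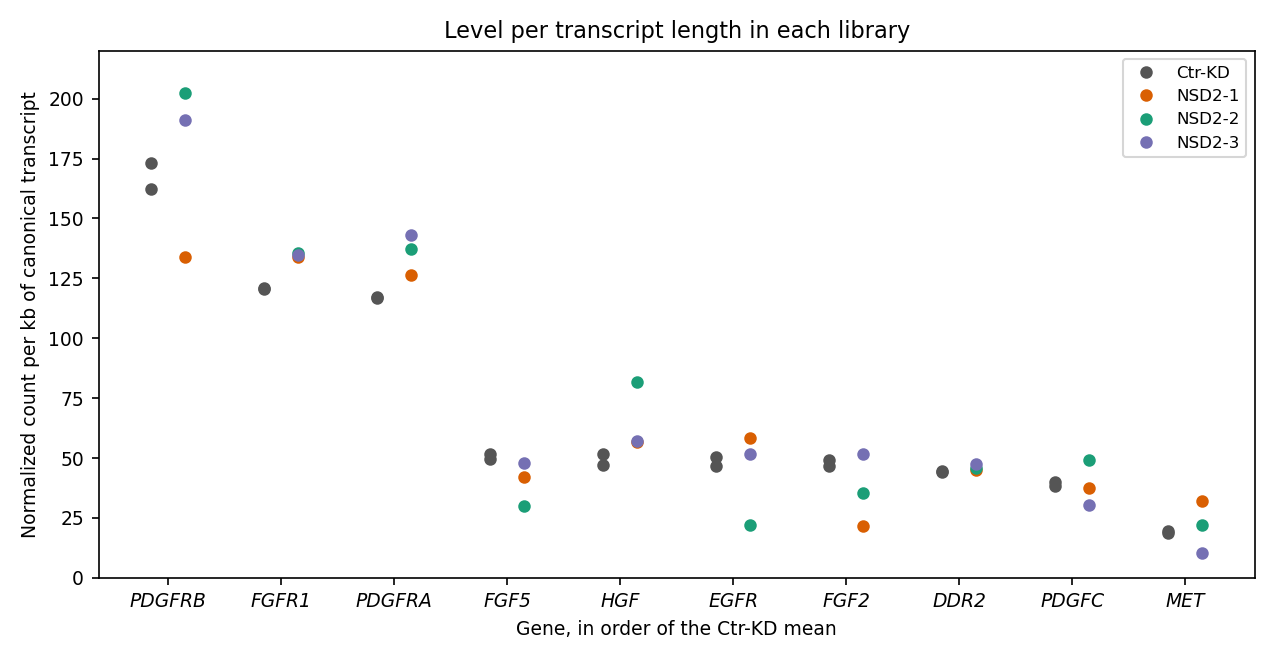
Normalized count per kb of canonical transcript (y axis, from 0) for the 10 genes in the order of their Ctr-KD mean, in Ctr-KD (grey, 2 libraries) and NSD2-KD cells (NSD2-1 orange, NSD2-2 green, NSD2-3 purple). PDGFRB, FGFR1 and PDGFRA lay above 116 per kb in each library and the other 7 genes below 82.

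The genes around these receptors and ligands were taken from 5 lists (203 genes, 116 of them tested), and none of the 116 was called by limma. An unadjusted p under 0.05 was found for 14 of them, 10 higher and 4 lower in NSD2-KD cells, and 15 lay wholly above and 11 wholly below the controls. Of all genes tested, 9.18% had an unadjusted p under 0.05, 13.8% lay wholly above and 13.9% wholly below. Whether the shares of the 116 differ from these was not tested. The median log2 difference of the 116 was 0.02. Of the other receptor tyrosine kinases (18 tested, median -0.01), the ephrin receptors EPHA2 (0.41, adjusted p = 0.413) and EPHA4 (0.67, 0.503) were higher at an unadjusted p under 0.05, and the VEGF receptor FLT1 (-0.44, 0.640) had the next smallest p. Among other ligands (18 tested, median 0.12), KITLG, the ligand of KIT, had the smallest p (0.60, 0.376). Among coreceptors and ligand-processing genes (19 tested, median 0.03), PLAT and GPC1 were higher at an unadjusted p under 0.05, and ADAM17, the protease that sheds EGFR ligands, had the next smallest p (0.32, 0.637). The adaptor, RAS-MAPK and PI3K list (35 tested, median 0.02) had 3 genes higher and 3 lower at an unadjusted p under 0.05, led by the kinases AKT2 (0.51, 0.267) and MAP2K2 (0.32, 0.382) and by the RAS protein NRAS (-0.70, 0.474). Of the feedback and turnover genes (26 tested, median 0.02), the RAS inhibitor SPRED1 (-0.28, 0.527) was lower and STAM (0.33, 0.530), which sorts receptors on endosomes, was higher at an unadjusted p under 0.05, followed by the ubiquitin ligase CBLB (0.44, 0.597).

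**Figure D5:**
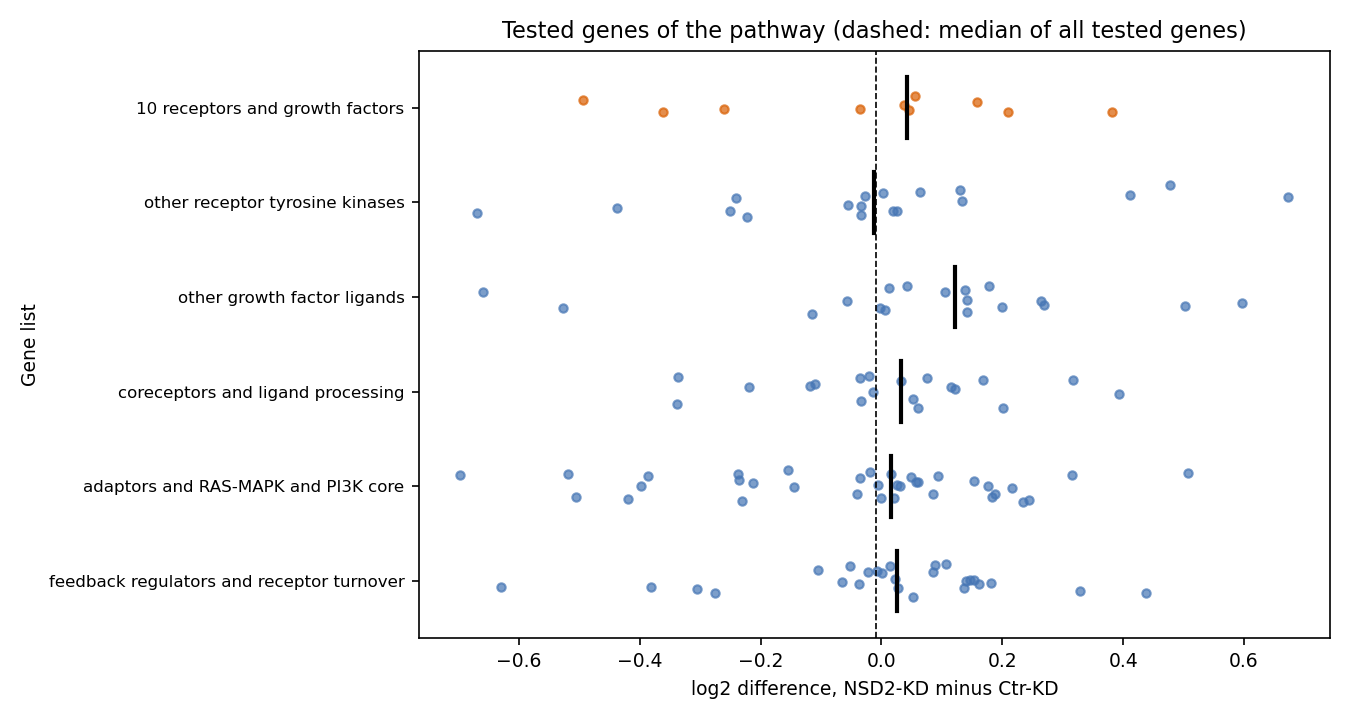
Fitted log2 difference, NSD2-KD minus Ctr-KD (x axis), of the 10 receptors and growth factors (orange) and of the 116 tested genes of 5 lists around them (blue), 1 point per gene. Black bars are medians by list and the dashed line is the median of all genes tested, -0.01. The list medians ran from -0.01 to 0.12.

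Of the other FGF ligands tested, the estimate was above 0 for FGF7 and below 0 for FGF1, as for FGF2 and FGF5, and neither was called. FGF7, a fibroblast product that acts on epithelium, had 113 and 112 normalized counts in Ctr-KD cells and 129.7, 206 and 153 in NSD2-KD cells (log2 difference 0.50, adjusted p = 0.490), highest with NSD2-2 as HGF was. FGF1 had 39.1 and 45.3 in Ctr-KD cells and 28.5, 17.5 and 36.1 in NSD2-KD cells (log2 difference -0.66, adjusted p = 0.583). It was lowest with NSD2-2, as were FGF5 and 34.8% of all genes tested. PLAT, the tissue plasminogen activator, had 321 and 368 normalized counts in Ctr-KD cells and 446, 451 and 458 in NSD2-KD cells (0.39, 0.295), close together in NSD2-KD cells and above both controls, without passing the threshold. GPC1, a heparan sulfate coreceptor of FGF2, had 1758 and 1896 in Ctr-KD cells and 1988, 2196 and 2116 in NSD2-KD cells (0.20, 0.544).

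A further 5 genes were named after their values had been seen, because they act directly on EGFR or MET or report the RAS-MAPK cascade below the receptors. HBEGF, an EGFR ligand, had 21.0 and 22.6 normalized counts in Ctr-KD cells and 8.28, 20.8 and 18.5 with NSD2-1, NSD2-2 and NSD2-3. CD44, a hyaluronan receptor that can serve MET as a coreceptor, had 3331 and 3380 in Ctr-KD cells and 1755, 4696 and 4452 in NSD2-KD cells. Both were lowest with NSD2-1, as were 32.7% of all genes tested. DUSP6, SPRY2 and SPRY4 are feedback inhibitors of the cascade, and each was lowest with NSD2-3. So were 12 of the 26 tested feedback and turnover genes (46.2%) and 32.5% of all genes tested. The 12 include DUSP6, SPRY2 and SPRY4 themselves, which were picked by their values, so the 46.2% is no independent support for them. Whether these shares differ was not tested. DUSP6 had 90.5 and 95.7 normalized counts in Ctr-KD cells and 118, 95.03 and 57.6 in NSD2-KD cells. SPRY2 had 55.3 and 52.5 against 78.2, 73.2 and 37.1, and SPRY4 had 143 and 153 against 180.4, 139.8 and 115. None of these 5 genes was called, with adjusted p-values from 0.749 for HBEGF to 0.994 for CD44, and since they were picked by their values they are given as a description only.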

How the data were processed

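Reads were trimmed by the authors, aligned to hg19 (HISAT2), restricted to unique alignments (SAMtools) and assigned to genes (featureCounts). The deposited signal of a gene is this count over the size factor that DESeq2 gave its library, so a change shared by all genes would not be seen. Reads per gene were recovered (100% of values whole within 0.01 reads). The other deposited table lists the authors' own test (fold changes, errors and p-values) and was not used here. Groups and replicate numbers came from the sample titles. limma (3.58.1) with a trend was fitted to log2(normalized count + 1) for the 11313 genes averaging at least 10, without covariates. The alternatives were edgeR (4.0.16), DESeq2 (1.42.0) and limma-voom on the reads, other pseudocounts, filters, scalings and variance settings, the replicate number as a block, and each library left out. By rule, genes named besides the 10 and NSD2 were the 3 with the smallest p of each list and the 3 closest to FGF2 and to HGF. HBEGF, CD44, DUSP6, SPRY2, SPRY4 and the overlapping NUDT6 and EGFR-AS1 were named outside it, after their values were seen. Member genes and lists were chosen with earlier results of these data known. Positions and lengths are from GENCODE on GRCh37. The limma, edgeR and DESeq2 fits were tested on simulated counts with large changes and equal spread in both groups. That test does not show how small a change these libraries could reveal.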

Additional observations from a re-analysis of the deposited data

How the results depend on the processing

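No member passed the threshold in any of 170 fits (17 alternatives for each of the 10 genes), with a lowest adjusted p of 0.0654, for FGF2 under the replicate block. The direction held in 162 fits, but other filters and variance settings leave the estimate itself unchanged and so could not reverse it. The 8 reversals were of PDGFRB, EGFR, MET and PDGFC, all with an NSD2-KD library left out or with the replicate block. With the replicate block, which uses only numbers 1 and 2 in both groups and so repeats the estimate without NSD2-KD replicate 3, the log2 difference was -0.025 for PDGFRB, 0.13 for PDGFC, 0.18 for DUSP6 and 0.10 for SPRY4, and 1 pathway list gene was called, NRAS. Leaving out each library in turn gave log2 differences of -0.068 to 0.23 for PDGFRB, -0.52 to 0.17 for EGFR, -0.32 to 0.48 for MET, -0.21 to 0.13 for PDGFC, -0.50 to -0.17 for FGF5, -0.26 to 0.45 for CD44, -0.33 to 0.18 for DUSP6, -0.045 to 0.48 for SPRY2, -0.22 to 0.10 for SPRY4, -0.35 to 0.25 for the difference in the FGF2 to FGF5 ratio, and 0.027 to 0.27 for that in the PDGFRA to PDGFRB ratio. CD44 was 0.11 by edgeR and 0.12 by DESeq2. Over all genes, 6 were lower and 4 higher in NSD2-KD cells. Lower genes numbered 11 by edgeR, 41 by DESeq2, 1 without the trend, 84 with the block and 0 to 22 with a library left out. Higher genes numbered 15 by DESeq2, 0 without the trend, 8 after quantile normalization, 18 with the block and 0 to 8 with a library left out. With either Ctr-KD replicate left out no gene was called, NSD2 included (adjusted p = 0.0927 and 0.0758), where the lone control is assumed to vary like the other group. The replicate numbers did not pair the libraries (correlation of same-numbered deviations -0.02 over 11313 genes), and the block changed no other call of a gene named here. Depth limits MET most, at 73 reads in its lowest library.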
